A study of Mus musculus with 87 samples.

Results

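Mouse blastocysts labelled pIR were compared with blastocysts labelled pWT, 4 libraries of each, which together are 8 of the 87 libraries of the series. They were chosen as the blastocyst columns of one deposited count table. The pWT columns carry the name O48 there, and each was matched to the pWT blastocyst of the same number by stage and elimination. The series follows semi-cloned mice, made with androgenetic haploid embryonic stem cells that hold a genome of paternal origin and replace the sperm at fertilization, and its title names cells without DNA methylation. The labels give pIR and pWT as genotypes and blastocyst as the stage. They do not spell out pIR, p or O48, the alleles, the embryo's age or the number of embryos per library, and those details are not given in the sources used here. For the stage before, 4 pIR and 3 pWT morula libraries were read as well.

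A blastocyst holds 3 kinds of cell. The trophectoderm is the polarized outer epithelium that pumps fluid into the cavity and later forms placental trophoblast. The inner cells divide into epiblast, which forms the fetus and is kept naive by factors such as Nanog, Klf2 and Esrrb, and primitive endoderm, driven by Gata6, Gata4 and Sox17. From morula to blastocyst the embryo also takes up more glucose and builds up mitochondrial respiration. In a bulk library, fewer cells of a type and less of its RNA per cell cannot be told apart.

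Total counts ran from 9787645 to 11578369 in pIR and from 9657865 to 14896979 in pWT libraries. Levels are given as CPM, counts relative to each library's TMM-scaled total, differences are log2 values of pIR minus pWT with ± SE, and p-values come from the quasi-likelihood test of edgeR with Benjamini-Hochberg adjustment over all tested genes. Nothing in the labels says that libraries came from separate embryos or fertilizations, so the p-values describe how these libraries vary, which may be technical. On the first principal component, which held 34.1% of the variance, pIR libraries lay between 15 and 50.59 and pWT libraries between -42.09 and -22.52. Trophectoderm genes summed to 14155 to 17278 CPM in pIR and 8579 to 13688 CPM in pWT libraries, and every library held RNA of all 3 lineages. Genes of other cells were low. The 15 cumulus and granulosa genes summed to 4.95 to 11.2 CPM in pIR and 10.5 to 24.4 CPM in pWT libraries, with 9 of them at 0 in all 8. The 14 blood genes summed to 1.55 to 15.8 CPM in pIR and 13.4 to 20.1 CPM in pWT libraries, with 6 at 0, and the 12 fibroblast genes to at most 2.96 CPM in pIR and 10.6 CPM in pWT libraries, with 7 at 0. The part of these cells in the results was not tested.

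Some pWT libraries stood apart along whole chromosomes. Over genes with a mean of at least 20 CPM, the median log2 shift of chromosome 4 was -0.24, -0.30, -0.26 and -0.32 in pIR 1 to 4 and -0.25, 0.28, 0.21 and -0.24 in pWT 1 to 4. That of chromosome 10 was -0.18, -0.17, -0.20 and -0.12 in pIR and -0.11, -0.15, 0.39 and -0.11 in pWT. So pWT 2 and pWT 3 were high for chromosome 4, and pWT 3 was high for chromosome 10, while pWT 1 and pWT 4 lay with the pIR libraries for both. Of 805 chromosome 4 genes tested, 2 rose and 107 fell in pIR (13.3% fell), with a median log2 difference of -0.43. The 107 became 9 without pWT 2, 88 without pWT 3, 7 without both (25 then rose) and 27 with each library's chromosome shifts removed (82 then rose). Of 584 chromosome 10 genes, 12 rose and 35 fell, and the 35 became 10, 21, 6 and 14 under the same settings. Other left-out libraries moved these counts too. Chromosome 4 had 16, 24 and 53 fallers without pIR 2, pIR 3 and pWT 1, and chromosome 10 had 8, 10 and 14. The 12 risers of chromosome 10 became 35 without pWT 3. For genes of these chromosomes, the value with the shifts removed is therefore given where it ends a call.

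**Figure D1:**
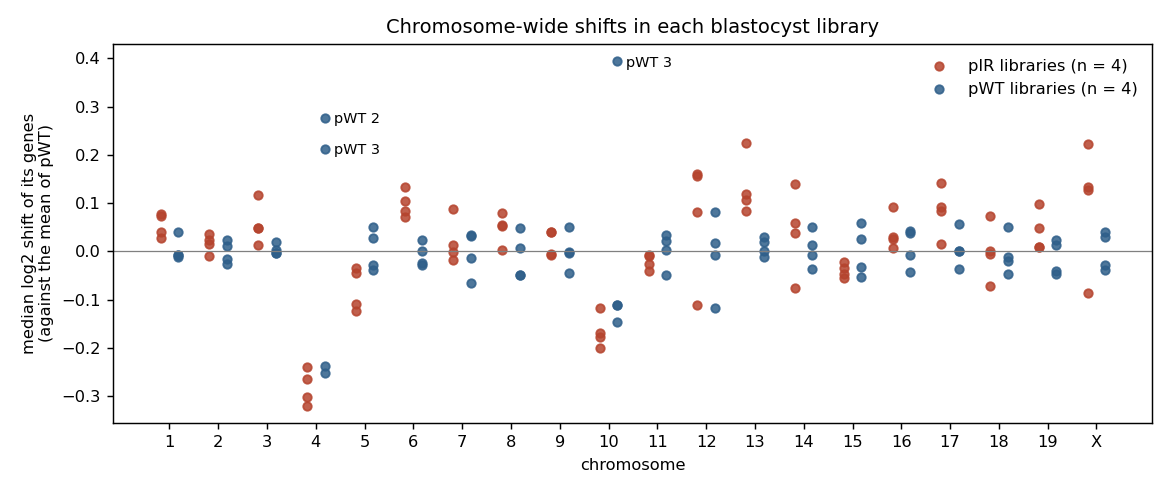
Median log2 shift of the genes of each chromosome in each library, against the mean of the 4 pWT libraries, for genes with a mean of at least 20 CPM. pIR libraries are drawn left of pWT libraries. pWT 2 and pWT 3 lie apart from the other 6 libraries for chromosome 4, and pWT 3 from the other 7 for chromosome 10.

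Across the genome 812 of 12056 tested genes rose in pIR blastocysts and 470 fell, which is 10.6% of those tested, with a median log2 difference of -0.07. The background for a list is therefore 6.74% rising and 3.9% falling. These shares depended on level. Of 6112 autosomal genes with a mean of at least 20 CPM, 11.6% rose and 5.64% fell. Of 5426 with a lower mean, 0.774% rose and 2.19% fell. For a list of well-expressed genes the background is therefore higher than that over all genes. The groups did not overlap for 18.5% of tested genes, with every pIR library higher for 9.82% and lower for 8.7%. The 1282 calls became 263 without pIR 2, 360 without pIR 3, 417 without pWT 1, 229 without pWT 2 and 739 without pWT 4. A smaller set of 181 genes (1.5%) was called with all libraries and without any 1 of them, 119 higher (0.987%) and 62 lower (0.514%) in pIR. Without both pWT 2 and pWT 3, 402 genes were called. Unless its lost calls are listed, a gene described below as having risen or fallen belongs to those 181.

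That set held genes of varied function, and the following were chosen after their values were seen. Taf10 encodes a subunit shared by the general factor TFIID and the SAGA coactivator. It had 44, 32.2, 27.7 and 40.3 CPM in pIR and 146, 134, 123 and 132 CPM in pWT libraries. Every pIR library held less than every pWT library (log2 difference -1.89 ± 0.20, edgeR adjusted p = 0.00123). Mcl1, an anti-apoptotic member of the Bcl2 family, had 85.2, 111, 92.8 and 113 CPM in pIR and 224, 213, 172 and 205 CPM in pWT libraries (-1.02 ± 0.17, edgeR adjusted p = 0.00808). Hes1, a repressor induced by Notch signalling, had 27.7, 40.03, 31.5 and 25.7 CPM in pIR and 84.2, 67.9, 67.9 and 68.4 CPM in pWT libraries (-1.21 ± 0.21, edgeR adjusted p = 0.00813). The groups did not overlap for either. Among risers, Sri, a calcium-binding protein, had 290.04, 486, 288 and 267 CPM in pIR and 79.7, 99.6, 122 and 135 CPM in pWT libraries (1.61 ± 0.23, edgeR adjusted p = 0.00498). Upp1, which splits uridine into uracil and ribose phosphate, had 342, 403, 309 and 236 CPM in pIR and 47.8, 104, 59.1 and 127 CPM in pWT libraries (1.93 ± 0.28, edgeR adjusted p = 0.00631, and 0.0897 with the morulae in the same fit). Havcr1, a cell-surface receptor for phosphatidylserine, had 422, 629, 468 and 624 CPM in pIR and 191, 191, 257 and 214 CPM in pWT libraries (1.33 ± 0.18, edgeR adjusted p = 0.00474). For these 3 risers every pIR library exceeded every pWT library.

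Of 29 trophectoderm genes tested, 7 rose (24.1%, against 6.74% of all genes) and 1 fell (3.45%, against 3.9%). Of autosomal genes with a mean of at least 20 CPM, 11.6% rose and 5.64% fell. The list's median log2 difference was 0.33. Cdx2, Eomes, Gata3 and Krt8 were not among the trophectoderm genes called. Cdx2, the homeobox factor of the lineage, had 9.31, 12.1, 9.45 and 18 CPM in pIR and 6.44, 9.62, 9.06 and 15.6 CPM in pWT libraries (0.26 ± 0.38, edgeR adjusted p = 0.696). Eomes, a T-box factor of trophoblast stem cells, averaged 51.9 ± 34 CPM in pIR and 41.4 ± 5.97 CPM in pWT libraries (SD, n = 4 each; edgeR adjusted p = 0.592). Gata3 averaged 319.5 ± 90.2 CPM in pIR and 394 ± 44.5 CPM in pWT libraries (edgeR adjusted p = 0.331). The epithelial keratin Krt8 averaged 1897 ± 483 CPM in pIR and 1551 ± 443 CPM in pWT libraries (edgeR adjusted p = 0.415). For all 4 the groups overlapped.

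Among the 7 that rose were Cldn4, Id2 and Msx2. Cldn4, a claudin of tight junctions, had 487, 457, 570.1 and 326 CPM in pIR and 158, 114, 173 and 208 CPM in pWT libraries. The lowest pIR library held more than the highest pWT library (1.5 ± 0.21, edgeR adjusted p = 0.00498). Id2, which blocks bHLH factors and is an early mark of outer cells, had 2595, 1544, 2269 and 2122 CPM in pIR and 653, 727, 1159 and 835 CPM in pWT libraries (1.34 ± 0.20, edgeR adjusted p = 0.00631). Msx2, a homeobox gene and BMP target, had 25.3, 35.4, 28 and 33.7 CPM in pIR and 5.52, 13.7, 4 and 7.13 CPM in pWT libraries (2.01 ± 0.37, edgeR adjusted p = 0.0103). Neither group overlapped the other for Id2 or Msx2, and both missed the threshold with the morulae in the same fit (edgeR adjusted p = 0.117 and 0.173). Dppa1 and, chosen after its values were seen, the tetraspanin Tspan8 also rose, by 0.87 ± 0.20 and 1.36 ± 0.33, but not without pIR 2 (edgeR adjusted p = 0.073 and 0.0756), pWT 1 (0.0565 and 0.0543) or pWT 2 (0.0666 and 0.0625). Tfap2c, an AP-2 factor shared by trophectoderm and naive cells, was the 1 that fell and is named for that, to 50.6 ± 20 CPM in pIR, against 97.3 ± 13.6 CPM in pWT libraries (-0.94 ± 0.25, edgeR adjusted p = 0.0293). It passed only without pIR 1 or pIR 4, and without the others its edgeR adjusted p was 0.0523 to 0.0998. The 7 that rose became 4 with the trend with transcript length removed, 4 without pWT 2 and pWT 3, and 4, 4 and 3 without pIR 2, pWT 1 and pWT 2, while the median stayed between 0.32 and 0.41 whichever library was left out.

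Of 25 naive epiblast genes, 3 rose (12%, against 6.74% of all genes) and 5 fell (20%, against 3.9%), so the list moved in both directions. Nanog had 102, 155, 183 and 304 CPM in pIR and 363, 337, 366 and 198 CPM in pWT libraries, and Sox2 had 16.3, 8.17, 17.7 and 43.5 CPM in pIR and 42.4, 60.6, 40.9 and 49.5 CPM in pWT libraries. In both genes 1 library of a group crossed into the other, pWT 4 for Nanog and pIR 4 for Sox2, and neither passed (edgeR adjusted p = 0.0931 and 0.0643). Pou5f1, the POU factor of pluripotent cells, had 27.9, 27.6, 38 and 16.6 CPM in pIR and 18.7, 13, 13 and 16.2 CPM in pWT libraries, with pIR 4 inside the pWT range (0.85 ± 0.30, edgeR adjusted p = 0.0767). DESeq2 called all 3 (adjusted p = 0.0448, 0.0214 and 0.0398).

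Klf2, a Krüppel-like factor that sustains naive pluripotency, had 20.7, 9.78, 14.7 and 40.7 CPM in pIR and 63, 62.5, 55.5 and 76.7 CPM in pWT libraries. All 4 pIR libraries lay below all 4 pWT libraries (-1.58 ± 0.35, edgeR adjusted p = 0.0157), but the call was lost without pIR 3 (edgeR adjusted p = 0.057), without pWT 2 (0.0507), without both pWT 2 and pWT 3 (0.0523) and with the morulae in the fit (0.07). Esrrb, an orphan nuclear receptor of the same network, had 32.7, 15.9, 12.8 and 28.5 CPM in pIR and 74.4, 54.1, 38 and 65.1 CPM in pWT libraries. It fell too (-1.36 ± 0.31, edgeR adjusted p = 0.0187), though not without pIR 2 (0.0693), pIR 3 (0.0561), pWT 1 (0.0588) or pWT 2 (0.0525). Tfcp2l1, Nr5a2 and Klf4, named here to complete the 5 after their values were seen, came with log2 differences of -0.69 ± 0.17, -0.97 ± 0.24 and -0.95 ± 0.25 and edgeR adjusted p of 0.0224, 0.023 and 0.0283. Tfcp2l1 and Nr5a2 passed only without pIR 1, pIR 4, pWT 3 or pWT 4, and otherwise had edgeR adjusted p of 0.0666 to 0.083 and 0.0545 to 0.0799. Klf4 lies on chromosome 4, and its edgeR adjusted p was 0.116 with chromosome shifts removed, 0.0997 without pIR 2, 0.0935 without pIR 3, 0.0952 without pWT 2 and 0.0606 without pWT 4. The 5 became 1, 0, 2 and 0 without pIR 2, pIR 3, pWT 1 and pWT 2, and 8 without pIR 4, and the 3 that rose became 1 without pWT 2 and 5 without pIR 1. With the trend with transcript length removed 2 rose and 3 fell. Without both pWT 2 and pWT 3, and with the morulae in the same fit, 2 rose and 2 fell. The list's median of -0.25 was 0.06 with chromosome shifts removed and 0.20 without pWT 2 and pWT 3.

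Other members of the naive list were higher. Morc1, a silencer of transposons in germ cells, had 27, 20.9, 15.4 and 10.3 CPM in pIR and 2.64, 3.48, 4.53 and 3.78 CPM in pWT libraries, with no overlap (2.36 ± 0.40, edgeR adjusted p = 0.00808). It did not pass with the morulae in the same fit (edgeR adjusted p = 0.257). Dppa5a, an RNA-binding protein of pluripotent cells, had 6004, 6849.8, 7019 and 5129 CPM in pIR and 3751, 3465, 4308 and 3897 CPM in pWT libraries (0.70 ± 0.14, edgeR adjusted p = 0.0114, and 0.0507 without pWT 2). The groups were again apart.

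Tcf15 fell furthest of the genes that met the naming rule for size. It encodes a bHLH factor whose activity readies naive epiblast cells for the next state and which the Id proteins hold back. It had 1.29, 1.15, 2.53 and 1.84 CPM in pIR and 14.5, 19.1, 22.3 and 24 CPM in pWT blastocysts. All pIR libraries lay far below all pWT libraries (-3.55 ± 0.41, edgeR adjusted p = 0.00129). Of the 10 formative epiblast genes tested, Etv5, an ETS factor downstream of FGF, was the other that fell, to 33.5 ± 10.7 CPM in pIR, against 73.5 ± 19.4 CPM in pWT libraries (-1.13 ± 0.27, edgeR adjusted p = 0.0203). It did not pass without pIR 2, pIR 3, pWT 2 or pWT 4 (edgeR adjusted p = 0.0686, 0.0676, 0.0635 and 0.0565). The call of Etv5 was also lost without both pWT 2 and pWT 3 and with the morulae in the same fit. In edgeR 0 formative genes rose, with 0 higher before adjustment (p under 0.05) and 0 in DESeq2.

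The primitive endoderm list held 1 riser and 1 faller among 23 genes. The riser was Dab2, an endocytic adaptor, which averaged 283 ± 43.9 CPM in pIR and 173 ± 43.96 CPM in pWT libraries (0.71 ± 0.20, edgeR adjusted p = 0.0381) and passed only without pIR 1 or pWT 3, with edgeR adjusted p of 0.0578 to 0.111 without the others. The faller was Fgfr1, and fallers became 2 without pIR 1, pIR 4 or pWT 3 and 0 without pIR 3 or pWT 2. Gata6, its first factor, had 192, 168, 127 and 257 CPM in pIR and 303, 319, 246 and 298 CPM in pWT libraries. pIR 4 lay inside the pWT range, and the test just missed the threshold (-0.65 ± 0.20, edgeR adjusted p = 0.0526, and 0.0479 with chromosome shifts removed). Gata4 had 27.3, 9.89, 7.95 and 0.92 CPM in pIR and 8.71, 2.43, 0 and 2.23 CPM in pWT libraries (edgeR adjusted p = 0.257). Sox17 averaged 12.4 ± 7.24 CPM in pIR and 11 ± 8.85 CPM in pWT libraries (edgeR adjusted p = 0.919), and Pdgfra, the receptor that marks these cells, 64.5 ± 18.4 CPM in pIR and 74.7 ± 16.7 CPM in pWT libraries (edgeR adjusted p = 0.593). Gata4 and Sox17 varied widely between libraries of one label, and their log2 differences had SEs of 0.97 and 0.82. The receptor Fgfr1, through which FGF4 acts on inner cells, had 26.9, 35.1, 26.7 and 36.5 CPM in pIR and 61.2, 61.9, 49.8 and 66.7 CPM in pWT libraries. It fell with no overlap (-0.94 ± 0.21, edgeR adjusted p = 0.0158), but not without pIR 3 (0.0521), pWT 2 (0.0531) or both pWT 2 and pWT 3 (0.0523). The call of Fgfr1 was also lost with the trend with transcript length removed and with the morulae in the same fit.

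**Figure D2:**
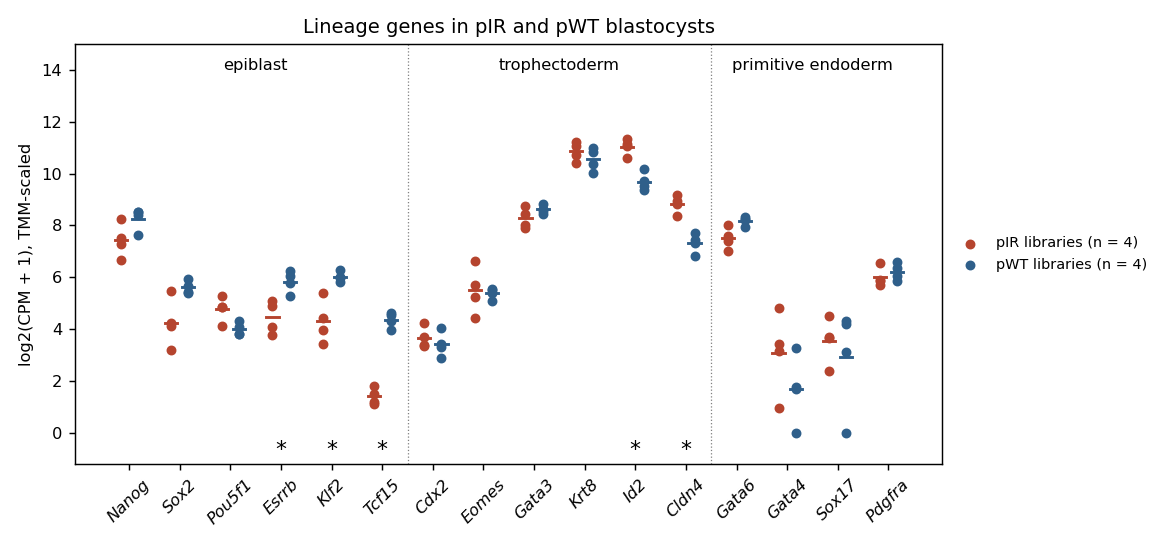
Levels of 16 lineage genes as log2(CPM + 1) in each pIR library, drawn left, and each pWT library, drawn right (n = 4 each, lines are means). A star marks the genes past an edgeR adjusted p of 0.05. The groups are apart for Tcf15, Klf2, Esrrb, Id2 and Cldn4 and overlap for Cdx2, Eomes, Gata3, Krt8, Gata4, Sox17 and Pdgfra.

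Few signalling genes were called. In edgeR 0 of 12 NODAL and 0 of 13 WNT genes passed. At an unadjusted p under 0.05, 1 NODAL gene was higher and 1 lower, and 1 WNT gene was higher and 3 lower, while DESeq2 called 2 NODAL genes and 1 WNT gene. Of the 13 WNT genes 3 had a log2 difference above 0 (median -0.45). With 1 library left out, 1 NODAL gene was called lower without pIR 1 and 1 higher without pWT 4, and 2 and 1 WNT genes were called lower without pIR 4 and pWT 3. Of 18 Hippo genes 2 fell, and these became 0 without pIR 2, pIR 3, pWT 1 or pWT 2, 1 without pIR 4, pWT 3 or pWT 4, 4 without pIR 1 and 0 with the trend with transcript length removed. Of 17 FGF-ERK genes 2 fell (Fgfr1 and Etv5), and these became 0 without pIR 3 or pWT 2 and 1 without pIR 2 or pWT 4. They also became 0 without both pWT 2 and pWT 3 and with the morulae in the same fit. With the trend with transcript length removed 1 fell. Of 11 BMP and ID genes Id2 was the 1 that rose. Of 30 genes for junctions and fluid transport 2 rose and 2 fell. The 2 risers became 1 without pIR 2, pIR 3, pWT 1 or pWT 2, and Cldn4 was called in all of these. The 2 fallers became 0 without pIR 2, pIR 3, pWT 1, pWT 2 or pWT 4, 5 without pIR 1 and 0 with the trend with transcript length removed.

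Genes of mitochondrial respiration were called higher in pIR at more than the background share. The TCA cycle oxidizes acetyl units to feed the respiratory chain, and pyruvate dehydrogenase supplies them. Of its 27 genes 8 rose (29.6%) and 0 fell, with 0 lower at an unadjusted p under 0.05 or by DESeq2. The share rising was 6.74% over all genes and 11.6% over autosomal genes with a mean of at least 20 CPM. The list's median log2 difference was 0.39. Idh3a, the catalytic subunit of the NAD-linked isocitrate dehydrogenase, had 475, 616, 630.1 and 489 CPM in pIR and 253, 307, 363 and 295 CPM in pWT libraries. Every pIR library lay above every pWT library (0.86 ± 0.17, edgeR adjusted p = 0.0112). Mdh1, the cytosolic malate dehydrogenase of the malate-aspartate shuttle, had 323, 635, 503 and 317 CPM in pIR and 158, 165, 262 and 161 CPM in pWT libraries (1.25 ± 0.24, edgeR adjusted p = 0.0114). Its mitochondrial partner Mdh2 had 951, 1547, 1784 and 1215 CPM in pIR and 638, 592, 889.8 and 545 CPM in pWT libraries (1.04 ± 0.21, edgeR adjusted p = 0.0114, and 0.0506 without pWT 2). The groups did not overlap for either. Idh3a and Mdh1 did not pass with the morulae in the same fit (edgeR adjusted p = 0.0995 and 0.0542). Citrate synthase, Cs, chosen after its values were seen, had 252, 257, 203 and 254 CPM in pIR and 284, 266, 327 and 262 CPM in pWT libraries and did not pass (-0.24 ± 0.15, edgeR adjusted p = 0.337), although every pIR library lay below every pWT library. The 8 became 4 without pIR 2, 5 without pIR 3 or pWT 1 and 3 without pWT 2, and the median was 0.29 to 0.37 with 1 library left out. Without pIR 1, 9 rose and 1 fell.

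The respiratory chain passes electrons to oxygen and drives ATP synthase. Of 73 nuclear-encoded subunits 26 rose (35.6%) and 0 fell, and 70 of the 73 had a log2 difference above 0, against 5528 of the 12056 genes tested. By DESeq2 33 rose and 0 fell, and 0 were lower at an unadjusted p under 0.05. The list median was 0.40, against 0.06 over autosomal genes with a mean of at least 20 CPM and -0.07 over all genes. Ndufa10, a subunit of complex I, had 321, 422, 399 and 301 CPM in pIR and 170.2, 168, 179.9 and 166 CPM in pWT libraries. The pWT libraries lay close together and all pIR libraries above them (1.08 ± 0.16, edgeR adjusted p = 0.00631). Uqcrc1, a core subunit of complex III, had 928, 1445, 1708 and 920.5 CPM in pIR and 454, 482, 773 and 399.99 CPM in pWT libraries (1.25 ± 0.24, edgeR adjusted p = 0.0112). Ndufa8, another complex I subunit, had 491, 587, 681 and 431 CPM in pIR and 279, 268, 357 and 265 CPM in pWT libraries (0.91 ± 0.18, edgeR adjusted p = 0.0114, and 0.0503 without pWT 2). All 4 pIR libraries exceeded all 4 pWT libraries for both. Summed, the 73 genes held 43410 to 53555 CPM in pIR and 33051 to 42080 CPM in pWT libraries. None of the 13 genes on the mitochondrial genome is in the table, so those subunits were not analysed here.

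How many of these genes were called depended on the libraries and on transcript length. The 26 became 3 without pIR 2, 5 without pIR 3, 5 without pWT 1, 2 without pWT 2, 10 without pWT 4 and 6 without pWT 2 and pWT 3, while the median stayed between 0.35 and 0.49. Log2 differences over all genes were lower for longer transcripts, with Spearman's rho of -0.29 across 11937 genes and median lengths of 2033 bases for risers, 3936 for fallers and 3194 for all. With the length trend removed, 10 of the 73 rose, and 52 had a log2 difference above 0, with a median of 0.15. Of the 27 TCA cycle genes 6 rose, with a median of 0.30. Over all genes 4.77% then rose and 2.41% fell (7.18% in all). Ndufa10, Uqcrc1, Ndufa8, Idh3a, Mdh1 and Mdh2 kept their calls in that fit.

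**Figure D3:**
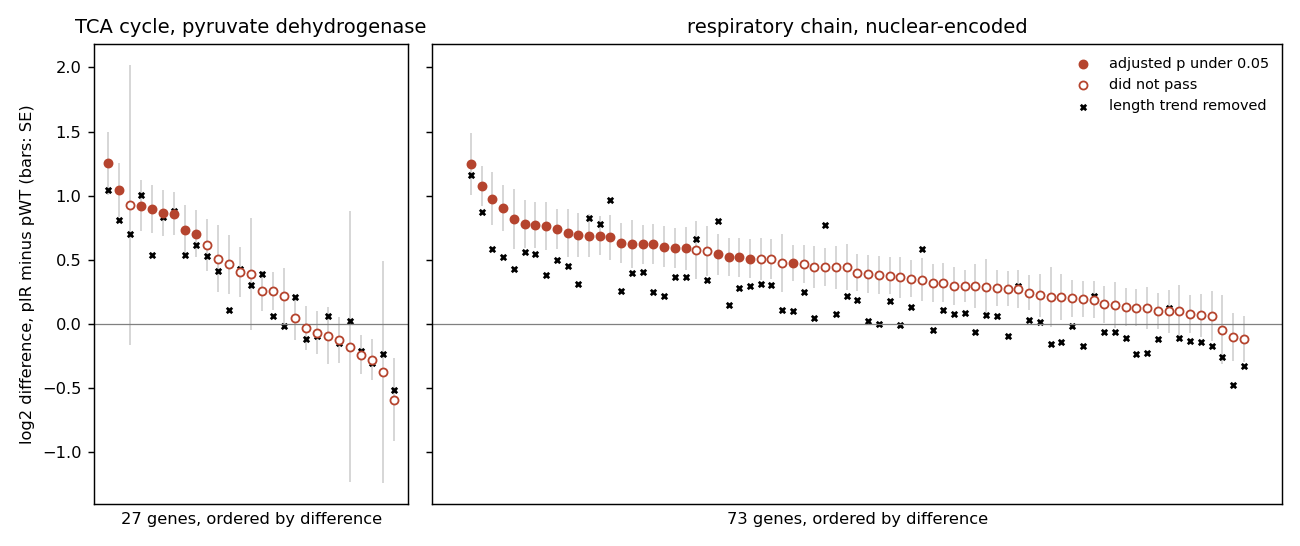
Log2 difference of pIR minus pWT for 27 genes of the TCA cycle and pyruvate dehydrogenase (left) and 73 nuclear-encoded respiratory chain genes (right), ordered by size, with bars of 1 SE. Filled points passed an edgeR adjusted p of 0.05 and crosses give the value with the length trend removed. In the right panel 70 of 73 points and 52 of 73 crosses lie above 0, and most crosses lie below their point.

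Of 20 glycolysis genes 1 rose and 4 fell, with a median of -0.31. The riser was Pgk1, the X-linked phosphoglycerate kinase, with 157, 128, 126 and 84 CPM in pIR and 15.4, 20.7, 13 and 71.5 CPM in pWT libraries (2.04 ± 0.45, edgeR adjusted p = 0.0155). pWT 4 came close to the pIR range, and the call was lost without pIR 2 (0.0503), pWT 1 (0.0516) or pWT 2 (0.0605). Hk1, a hexokinase, had 2.85, 0.92, 3 and 6.85 CPM in pIR and 20.3, 17.9, 13.9 and 11.1 CPM in pWT libraries. It fell with no overlap (-2.21 ± 0.52, edgeR adjusted p = 0.0196), but not without pIR 2, pIR 3, pWT 1 or pWT 2 (edgeR adjusted p = 0.052, 0.063, 0.0593 and 0.0625). The glucose transporter Slc2a1, on chromosome 4, fell by 0.79 ± 0.18 on the log2 scale (edgeR adjusted p = 0.0196), and its edgeR adjusted p was 0.176 with chromosome shifts removed and 0.0539 to 0.0703 without pIR 2, pIR 3, pWT 1 or pWT 2. The 4 fallers became 0 without pIR 2, pIR 3, pWT 1 or pWT 2 and 2 without pWT 4 or with chromosome shifts removed. Without both pWT 2 and pWT 3 the glycolysis list held 0 called genes.

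Hypoxia-inducible factors switch on glycolysis and mitophagy genes when oxygen is low, and of 22 such genes 2 rose and 2 fell. The risers became 1 without pIR 2, pIR 3 or any 1 of the 4 pWT libraries, the fallers became 1 without pIR 2, pIR 3 or pWT 2, and Bnip3 and Epas1 were called in all of these. Bnip3, a mitophagy receptor of the outer mitochondrial membrane, had 449, 774, 699 and 579 CPM in pIR and 288, 159, 385 and 225 CPM in pWT libraries, with no overlap (1.24 ± 0.25, edgeR adjusted p = 0.0114). Epas1, which encodes the factor HIF2α itself, had 75.7, 58.2, 92.3 and 109 CPM in pIR and 239.6, 177, 214 and 141 CPM in pWT libraries. Every pIR library held less than every pWT library (-1.2 ± 0.22, edgeR adjusted p = 0.0104). Hilpda, a lipid droplet protein of the same response, had 121, 103, 92.3 and 84.2 CPM in pIR and 42, 43.2, 48.1 and 55 CPM in pWT libraries. It rose with no overlap (1.09 ± 0.19, edgeR adjusted p = 0.00909), and was the 1 of 18 lipid droplet genes that passed, against 2 without pIR 1 and 3 without pWT 3.

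In lipid metabolism a gene of sterol synthesis rose and a desaturase fell. Idi1, the isopentenyl diphosphate isomerase of cholesterol synthesis, had 88.9, 117, 114 and 70.2 CPM in pIR and 14.8, 30.5, 46.3 and 33.4 CPM in pWT libraries (1.64 ± 0.30, edgeR adjusted p = 0.0101). Of 24 cholesterol genes 3 rose and 0 fell. Scd2, which desaturates fatty acids, had 187, 261, 171 and 206 CPM in pIR and 462, 359, 327 and 426 CPM in pWT libraries (-0.93 ± 0.18, edgeR adjusted p = 0.0112, and 0.11 with the morulae in the same fit). The groups did not overlap for Idi1 or Scd2. Of 20 fatty acid synthesis genes 2 rose and 3 fell, and of 20 fatty acid oxidation genes 4 rose and 2 fell. Without pIR 2, pIR 3, pWT 1 or pWT 2 the fatty acid oxidation list held 0 called genes. Without pWT 4 it held 1 riser, its fallers became 0 without pIR 1 or pWT 4 and 1 without pWT 3, and with the length trend removed 2 rose and 0 fell. The cholesterol risers became 1 without pIR 2 or pWT 2 and 6 without pWT 3. For fatty acid synthesis the risers became 0 without pIR 2, pIR 3, pWT 1, pWT 2 or pWT 4 and with the length trend removed, and the fallers became 1 without pIR 2, pIR 3, pIR 4, pWT 1 or pWT 2.

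The unfolded protein response raises chaperones when proteins misfold in the endoplasmic reticulum. Of 18 of its genes 4 rose (22.2%) and 0 fell, with a median of 0.51 that stayed between 0.36 and 0.58 whichever library was left out. The 4 became 1 without pIR 2, pIR 3 or pWT 1 and 2 without pWT 2 or pWT 4. Manf, a secreted factor held in the endoplasmic reticulum, had 258, 214, 218 and 105 CPM in pIR and 66.4, 62.4, 94.9 and 87.9 CPM in pWT libraries. The pIR libraries all lay higher, pIR 4 by little (1.35 ± 0.25, edgeR adjusted p = 0.0104). Creld2, a chaperone of the same response, had 90.5, 111, 102 and 48.7 CPM in pIR and 42.1, 50.2, 42.9 and 47.5 CPM in pWT libraries, so pIR 4 lay inside the pWT range (0.94 ± 0.24, edgeR adjusted p = 0.0244). Pdia6, a protein disulfide isomerase, had 189, 175, 215 and 157 CPM in pIR and 129, 136, 118 and 94.7 CPM in pWT libraries (0.63 ± 0.17, edgeR adjusted p = 0.0353). Creld2 passed only without pIR 1, pIR 4 or pWT 3 and Pdia6 only without pIR 1 or pIR 4, with edgeR adjusted p of 0.0514 to 0.0911 and 0.0577 to 0.106 without the others. Hspa5, the main chaperone of the compartment, averaged 403 ± 118 CPM in pIR and 253 ± 35.8 CPM in pWT libraries and did not pass (0.67 ± 0.21, edgeR adjusted p = 0.0578).

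Asns, asparagine synthetase, is a standard target of the stress factor ATF4. It had 250.5, 185, 228 and 76.1 CPM in pIR and 23.4, 38.7, 31.9 and 78 CPM in pWT libraries. Thus pIR 4 and pWT 4 were at one level and the other libraries were far apart (2.1 ± 0.38, edgeR adjusted p = 0.0103, and 0.0635 without pWT 2 and pWT 3). Slc3a2, the heavy chain of several amino acid transporters, had 209.8, 170.4, 165 and 152 CPM in pIR and 83.6, 95.2, 109 and 84.3 CPM in pWT libraries, with no overlap (0.91 ± 0.17, edgeR adjusted p = 0.0112). Of 16 ATF4 and amino acid transport genes 3 rose and 0 fell, with a median of -0.08. The 3 became 1 without pWT 2 and pWT 3, and 2 genes were called lower without pIR 1.

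The sequences before some of these genes are shown because these 5 risers hold there an element known for their list. They are the 250 bases before the RefSeq start on GRCm38.p6, on the gene's strand from 5′ to 3′, for the first start listed. Capitals mark the fixed letters of the motif searched, on either strand. The endoplasmic reticulum stress element was searched as CCAAT and CCACG with 9 bases between them, and stood before 7 of the 16 unfolded protein response genes with a window, Pdia6 and Creld2 among them, and before 0.122% of all 27025 windows. The ATF4 element, TGATGNAA, stood before 4 of 18 genes of its list and 3.53% of all windows. The hypoxia core ACGTG stood before 11 of 20 hypoxia genes and 16.6% of all windows, and in Bnip3 both strands match at 1 place. The element of the respiratory factor NRF1, searched as GCGCA and GCGC with 1 base between them, stood before 10 of 62 respiratory chain genes and 3.86% of all windows, and before 4 of its 22 risers with a window. The windows of Creld2 (chr15:88819396-88819645, plus strand), Pdia6 (chr12:17266339-17266588, plus), Asns (chr6:7693210-7693459, minus), Bnip3 (chr7:138909507-138909756, minus) and Ndufa8 (chr2:36049339-36049588, minus) follow.
Creld2: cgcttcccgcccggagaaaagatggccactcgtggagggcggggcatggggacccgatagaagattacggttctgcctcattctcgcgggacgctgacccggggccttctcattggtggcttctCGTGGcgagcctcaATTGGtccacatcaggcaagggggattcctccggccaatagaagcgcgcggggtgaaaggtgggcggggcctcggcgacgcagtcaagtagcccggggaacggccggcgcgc
Pdia6: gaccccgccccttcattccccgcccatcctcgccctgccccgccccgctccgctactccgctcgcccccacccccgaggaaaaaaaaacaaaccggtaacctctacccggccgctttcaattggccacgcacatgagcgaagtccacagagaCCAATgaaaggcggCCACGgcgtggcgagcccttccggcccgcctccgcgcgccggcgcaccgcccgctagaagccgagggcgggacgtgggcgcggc
Asns: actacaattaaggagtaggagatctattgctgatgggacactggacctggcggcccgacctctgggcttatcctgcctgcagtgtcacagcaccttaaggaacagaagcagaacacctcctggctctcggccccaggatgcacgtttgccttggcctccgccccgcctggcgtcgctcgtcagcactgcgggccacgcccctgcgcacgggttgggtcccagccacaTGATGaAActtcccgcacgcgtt
Bnip3: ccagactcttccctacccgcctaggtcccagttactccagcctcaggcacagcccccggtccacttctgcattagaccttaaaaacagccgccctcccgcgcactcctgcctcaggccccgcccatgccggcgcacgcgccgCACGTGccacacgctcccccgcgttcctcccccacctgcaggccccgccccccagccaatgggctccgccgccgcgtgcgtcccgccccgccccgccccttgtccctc
Ndufa8: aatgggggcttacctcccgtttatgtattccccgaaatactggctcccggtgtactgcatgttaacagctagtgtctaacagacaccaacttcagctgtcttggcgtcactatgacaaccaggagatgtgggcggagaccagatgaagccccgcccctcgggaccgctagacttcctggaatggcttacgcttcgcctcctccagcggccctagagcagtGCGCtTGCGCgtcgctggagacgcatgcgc
In Creld2 and Pdia6 the element begins 126 and 98 bases before the start, and the match in Asns begins 23 bases before it. A match is a description of these letters and says nothing of what binds there.

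**Figure D4:**
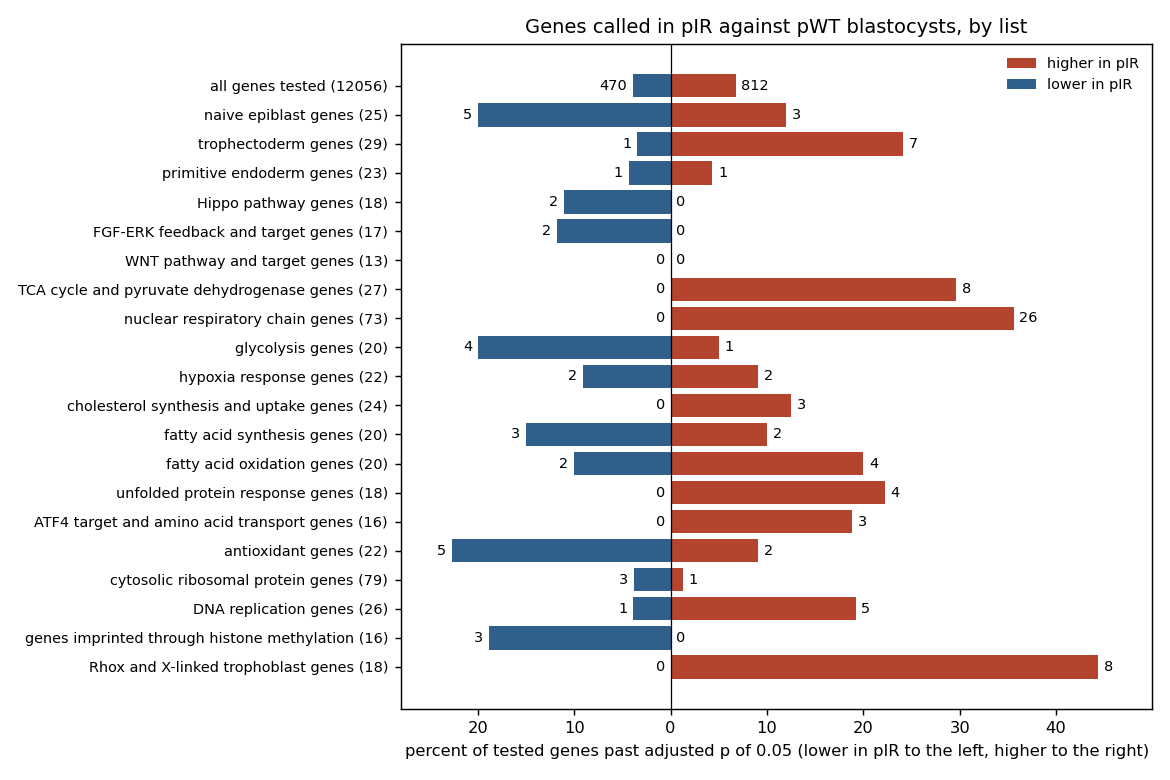
Percent of tested genes past an edgeR adjusted p of 0.05 in 20 lists and in all genes, with lower in pIR to the left and higher to the right. Bar ends give counts and brackets the genes tested. The respiratory chain (26 higher, 0 lower), the TCA cycle (8 and 0) and the Rhox and X-linked trophoblast list (8 and 0) reach furthest right. The share higher was 6.74% for all genes. It was 11.6% for autosomal genes with a mean of at least 20 CPM and 13.3% for X-linked genes, which are not drawn. The Rhox list also holds Xlr, Fthl17 and other X-linked genes.

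Lists of growth and division held calls in both directions, apart from the mitosis list. Of 79 ribosomal protein genes 1 rose and 3 fell, with a median of 0.10. That median was -0.19 with the length trend removed. The 1 riser became 9 with the trend with GC content removed, 3 with chromosome shifts removed, 4 without pIR 4 and 0 without pIR 2, pIR 3 or pWT 2, and the 3 fallers became 1 with chromosome shifts removed, without pIR 2 or without pWT 2. Rps12, on chromosome 10, was 1 of the 3, with 155, 135, 127 and 133 CPM in pIR and 282, 236, 261 and 223 CPM in pWT libraries (-0.86 ± 0.16, edgeR adjusted p = 0.01), and it passed with chromosome shifts removed. Of 24 ribosome biogenesis genes 4 rose (16.7%) and 2 fell (8.33%). Wdr12, which acts in assembly of the large ribosomal subunit, averaged 175 ± 40.8 CPM in pIR and 85.5 ± 20.2 CPM in pWT libraries (1.03 ± 0.22, edgeR adjusted p = 0.0133, but 0.0532 without pIR 2 and 0.0555 without pWT 2 and pWT 3). The 4 became 0 without pIR 2, 1 without pIR 3, pWT 1 or pWT 2 and 2 without pWT 4, and the 2 that fell became 0 without pIR 2, pIR 3, pWT 1 or pWT 2 and 1 without pWT 3 or pWT 4. Of 26 DNA replication genes 5 rose (19.2%) and 1 fell. Rfc4, a subunit of the clamp loader, had 190.3, 329.8, 319 and 228 CPM in pIR and 105, 114, 137 and 102 CPM in pWT libraries, with no overlap (1.22 ± 0.20, edgeR adjusted p = 0.00808). Without pIR 2, pIR 3, pWT 1 or pWT 2 the 5 became 1, without pWT 4 they became 3, and with chromosome shifts removed 8. Of 25 mitosis genes 2 rose and 0 fell, with 1 lower before adjustment (p under 0.05). The 2 mitosis risers became 0 without pIR 2, pIR 3, pWT 1, pWT 2 or pWT 4 and 4 without pIR 1. Of 23 p53 targets 1 rose and 1 fell, the riser lost without pIR 2, pIR 3, pIR 4, pWT 2, pWT 3 or pWT 4, and the fallers 0 without pIR 1, pIR 2, pIR 3, pWT 1, pWT 2 or pWT 4 and 3 without pIR 4. Among 22 antioxidant genes 2 rose and 5 fell, and the 5 became 1, 0, 3 and 0 without pIR 2, pIR 3, pWT 1 and pWT 2, 3 without pIR 1 or pIR 4 and 2 without pWT 3, while the 2 risers became 0 without pWT 2, 1 without pIR 2, pIR 3, pWT 1 or pWT 4 and 4 without pWT 3. Txnrd1, the cytosolic thioredoxin reductase, had 63, 71.1, 28.7 and 41.3 CPM in pIR and 84.8, 125, 112 and 100.5 CPM in pWT libraries (-1.05 ± 0.26, edgeR adjusted p = 0.0231). It lies on chromosome 10 and did not pass with chromosome shifts removed (0.0554), without pIR 3 (0.0637) or without pWT 2 (0.0753).

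Other lists held few calls that did not depend on single libraries. Of 26 genes of the pentose phosphate path and nucleotide synthesis 5 rose (19.2%) and 1 fell, and the 5 became 0 without pIR 2, pIR 3, pWT 1 or pWT 2 and 1 without pWT 4, while the faller was lost without pIR 2, pIR 3 or pWT 2 and 2 fell without pWT 3. Of 24 serine and one-carbon genes 1 rose and 3 fell (12.5%), with 0 called without pIR 2, pIR 3, pWT 1 or pWT 2, and without pWT 4 only 1 was called, lower in pIR. Without pWT 3 the serine riser was lost as well. Of 30 lysosome and autophagy genes 2 rose and 2 fell. Ctsc, a lysosomal protease, averaged 496 ± 145 CPM in pIR and 227 ± 51.9 CPM in pWT libraries with no overlap (1.13 ± 0.23, edgeR adjusted p = 0.0115). The other lysosomal riser was Cd63, and the 2 fallers became 0 without pIR 2, pIR 3, pWT 1 or pWT 2, 1 without pWT 3 or pWT 4 and 4 without pIR 4. Among 20 germ cell genes that promoter methylation is known to silence, 0 rose and 1 fell, with 0 higher before adjustment (p under 0.05) and a median of -0.25, and the faller passed only without pIR 4 or pWT 3. Of 10 interferon-induced genes 0 rose and 1 fell, and the faller passed only without pIR 1, pWT 1 or pWT 4. Of 12 X inactivation genes 0 passed in edgeR, with 0 higher and 2 lower before adjustment (p under 0.05) and 0 higher and 1 lower in DESeq2. Of the 4 tested genes of the 2-cell stage 1 rose. Of 6 maternal oocyte transcripts 0 passed in edgeR, with 0 higher and 1 lower before adjustment (p under 0.05) and 0 higher and 0 lower in DESeq2.

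Of 399 X-linked genes tested, 53 rose (13.3%, against 6.74% of all genes) and 6 fell, with a median log2 difference of 0.22. The 53 became 20, 31, 30 and 19 without pIR 2, pIR 3, pWT 1 and pWT 2, and 33 with the length trend removed. The shift depended on the level of the genes. Over the 200 X-linked genes with a mean under 20 CPM, the median shift was 0.47, 0.42, 0.48 and 0.41 in pIR 1 to 4 and -0.02, 0.00, -0.09 and 0.21 in pWT 1 to 4, with no overlap. Over the 199 with at least 20 CPM it was 0.13, -0.08, 0.13 and 0.22 in pIR and 0.03, 0.04, -0.04 and -0.03 in pWT, and pIR 2 lay below all pWT libraries. Xist, the RNA that coats the inactive X, had 505, 21.1, 368 and 576 CPM in pIR and 436, 514, 352 and 626 CPM in pWT libraries, so pIR 2 stood apart there as well (edgeR adjusted p = 0.698).

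Of the 10 genes with the largest rises that met the naming rule, 7 were X-linked (Zdhhc15, Spin2c, Xlr, Plac1, Xlr3c, Bex1 and Il2rg), and of the 10 with the largest falls 0 were. Among all 12056 tested genes 399 were X-linked. Plac1, a trophoblast gene, had 311, 69.9, 53.7 and 51.6 CPM in pIR and 2.33, 5.82, 3.9 and 24.1 CPM in pWT libraries (edgeR adjusted p = 0.0114, and 0.0503 without pWT 2). pIR 1 was by far the highest, and the groups did not overlap. Xlr, of a family of X-linked lymphocyte-regulated genes, had 8.71, 33.8, 22 and 31.9 CPM in pIR and 0.614, 0, 1.9 and 4.04 CPM in pWT libraries (3.89 ± 0.80, edgeR adjusted p = 0.013, and 0.0503 without pIR 2). Il2rg, the shared chain of several interleukin receptors, had 28.9, 15.1, 40.8 and 20.6 CPM in pIR and 1.35, 5.42, 2.32 and 7.05 CPM in pWT libraries (2.71 ± 0.50, edgeR adjusted p = 0.0104, and 0.161 with the morulae in the same fit). Both were apart between groups. Zdhhc15, Spin2c, Xlr3c and Bex1 had edgeR adjusted p of 0.0114 to 0.0303 with all libraries, and each missed the threshold without pIR 2 (0.0686, 0.127, 0.0664 and 0.0555). Without pWT 2, Zdhhc15, Spin2c and Bex1 missed it as well (0.0625, 0.0698 and 0.0506), without pWT 1 Zdhhc15 and Spin2c did (0.0543 and 0.0796), and without pIR 3 Spin2c did (0.0539).

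The 181 genes that were also called with each 1 library left out in turn were 1.5% of the 12056 tested, and 119 of them rose. They held 14 of the 399 X-linked genes tested, and all 14 rose. Those given here were chosen after their values were seen. Hsd17b10, a mitochondrial dehydrogenase that is also part of mitochondrial RNase P, had 123, 126, 143 and 121 CPM in pIR and 33.4, 37, 41.2 and 54.1 CPM in pWT libraries (1.63 ± 0.19, edgeR adjusted p = 0.0015). Fmr1nb, a germ cell gene beside Fmr1, had 271, 451, 317 and 289.7 CPM in pIR and 108, 107, 116 and 102 CPM in pWT libraries (1.62 ± 0.18, edgeR adjusted p = 0.00129). Bex3, a brain-expressed X-linked gene, had 658, 1054, 531 and 752 CPM in pIR and 84, 167, 245 and 311 CPM in pWT libraries (1.89 ± 0.32, edgeR adjusted p = 0.00813). In all 3 the lowest pIR library exceeded the highest pWT library. Slc6a14, an amino acid transporter, had 146, 111, 80.3 and 50.1 CPM in pIR and 3.5, 25.1, 22 and 25 CPM in pWT libraries (2.36 ± 0.48, edgeR adjusted p = 0.0119). The list of Rhox and X-linked trophoblast genes also holds Xlr, Fthl17 and other X-linked genes. Of its 18 genes tested 8 rose (44.4%, against 13.3% of X-linked genes). Xlr3a was among them, with 103, 169, 130.3 and 83.1 CPM in pIR and 39.2, 34.9, 35.7 and 61.1 CPM in pWT libraries (1.51 ± 0.25, edgeR adjusted p = 0.00808, but 0.136 with the morulae in the same fit and 0.0506 without pWT 2 and pWT 3). The 8 became 3 without pIR 2 or pWT 2, 5 without pWT 1, 1 without pWT 2 and pWT 3 and 6 with chromosome shifts removed. Copies of the Xlr family are nearly identical, and how shared reads were counted is not stated, so the split between them is uncertain.

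Imprinted genes are read from 1 parental copy. In edgeR 0 of the 6 tested genes in clusters methylated on the paternal copy passed, with 1 lower before adjustment (p under 0.05) and 0 past the threshold in DESeq2, and H19 and Meg3 overlapped between groups. Of 16 paternally expressed genes in maternally methylated clusters 2 rose and 0 fell, and these are Snrpn and Snurf, whose counts are nearly the same because they share transcripts. Snrpn, a splicing protein, had 291, 495, 496 and 377 CPM in pIR and 221, 174, 218 and 189 CPM in pWT libraries, with no overlap (1.05 ± 0.19, edgeR adjusted p = 0.00994). Of 17 maternally expressed genes 1 rose and 1 fell, both lost without pIR 2, pIR 3, pWT 1 or pWT 2, while the riser was also lost without pWT 4 and 3 rose without pIR 4. Of 16 genes imprinted through maternal histone methylation 0 rose and 3 fell, among them Epas1, and 2 of the 16 had a log2 difference above 0. The 3 became 1 without pWT 2 and pWT 3 and 2 with the length trend removed. The list median was -0.64, and -0.28 with the length trend removed. Jade1, a scaffold of a histone acetyltransferase, had 57, 45.6, 37.1 and 59.1 CPM in pIR and 99.8, 142, 107 and 81.5 CPM in pWT libraries (-1.12 ± 0.22, edgeR adjusted p = 0.0114, but 0.0775 without pWT 2 and pWT 3 and 0.0549 with the morulae in the same fit). Its groups did not overlap. Of 22 genes for DNA methylation and imprint protection 0 rose and 1 fell (0 without pIR 2, pIR 3, pWT 1 or pWT 2), and the methyltransferase Dnmt3b averaged 165 ± 87.2 CPM in pIR and 161 ± 23.4 CPM in pWT libraries (edgeR adjusted p = 0.955).

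Morulae gave few calls, and their number changed with each library left out. One pIR morula stood apart along a chromosome, with a median log2 shift of chromosome 5 of -0.87 in pIR morula 1, against -0.06 to 0.02 in the other 6 morulae, and -0.27 for chromosome 12. In edgeR 16 of 11773 genes passed in morulae (0.136%), and 11 of them also passed in blastocysts, all in the same direction. The 16 became 8 without pIR morula 1, 1, 7 and 0 without pIR morulae 2, 3 and 4, 0, 0 and 6 without pWT morulae 1, 2 and 3, and 6 with chromosome shifts removed. Of the 11 genes 3 were called in morulae without pIR morula 1 (Bag1, Rap1b and Rmi2) and 5 with chromosome shifts removed (those 3, Nsmce4a and Glrx5). Get4 and Spp1 lie on chromosome 5, with edgeR adjusted p in morulae of 0.0554 and 0.0879 without pIR morula 1 and 0.102 and 0.0518 with chromosome shifts removed.

 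Taf10 averaged 15.1 ± 4.61 CPM in pIR and 67.5 ± 18.8 CPM in pWT morulae (SD, n = 4 and 3; -2.13 in morulae, -1.89 in blastocysts). Nsmce4a, a subunit of the SMC5/6 complex, had 113, 102, 110.3 and 182 CPM in pIR and 360.2, 331, 416 and 301 CPM in pWT blastocysts, and averaged 86.2 ± 23.3 CPM in pIR and 345 ± 146 CPM in pWT morulae. Cmas, which activates sialic acid, had 15.8, 27.5, 16.4 and 18.6 CPM in pIR and 54.1, 70.1, 53 and 44.8 CPM in pWT blastocysts, and averaged 13.6 ± 2.14 CPM in pIR and 55.4 ± 10.9 CPM in pWT morulae. In each of the 3 the groups were apart at both stages. The edgeR adjusted p in blastocysts were 0.00474 for Nsmce4a and 0.00808 for Cmas. Glrx5, a mitochondrial glutaredoxin for iron-sulfur clusters, had 25.7, 14.6, 64.3 and 19.1 CPM in pIR and 103, 91.1, 125 and 97 CPM in pWT blastocysts (edgeR adjusted p = 0.0132, and 0.0589 without pWT 2 and pWT 3), and averaged 11.2 ± 4.73 CPM in pIR and 76.6 ± 19.7 CPM in pWT morulae. Rmi2, of the complex that dissolves recombination intermediates, had 8.19, 5.87, 24.3 and 8.99 CPM in pIR and 52.7, 53.5, 53.1 and 48.1 CPM in pWT blastocysts. pIR 3 was the highest pIR library for both Glrx5 and Rmi2 and still below all pWT libraries. Bag1 also fell at both stages, and so did Get4, Rap1b and Hnrnpab, whose blastocyst calls with edgeR adjusted p of 0.0414 to 0.0467 were each lost without 6 or 7 of the 8 libraries, with edgeR adjusted p of 0.0584 to 0.143, 0.0519 to 0.14 and 0.0628 to 0.127 without them. All 3 missed the threshold with chromosome shifts removed (0.0621, 0.082 and 0.0505). These genes were chosen by their calls at both stages, so the shared direction is a description.

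Bag1 and Rap1b lie on chromosomes 4 and 10. Bag1, a co-chaperone of Hsp70, had 62.7, 66.4, 109 and 98.5 CPM in pIR and 229, 394, 589.8 and 258 CPM in pWT blastocysts (-2.13 ± 0.29, edgeR adjusted p = 0.00474). pWT 2 and pWT 3 were the highest, pWT 1 and pWT 4 were still above all pIR libraries, and the gene passed with chromosome shifts removed and without pWT 2 and pWT 3. Ybx1, a cold-shock protein that binds mRNA, also on chromosome 4, had 794, 729, 631 and 736 CPM in pIR and 1523, 2219.7, 2002 and 1682 CPM in pWT blastocysts (-1.36 ± 0.16, edgeR adjusted p = 0.00129). It passed in the same settings.

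Of the 11 genes Spp1 and Cd63 rose. Spp1, the secreted protein osteopontin, had 1319.9, 1746, 1766 and 1140.2 CPM in pIR and 271, 569, 691 and 402 CPM in pWT blastocysts (1.63 ± 0.25, edgeR adjusted p = 0.00713, and 0.0674 with the morulae in the same fit). In morulae it had 40.2, 121, 17.9 and 21.8 CPM in pIR and 0.126, 1.89 and 0.596 CPM in pWT libraries. The groups were apart at both stages for Spp1, and its log2 difference was smaller in blastocysts by 4.46 ± 0.90, which did not pass as a difference between stages (edgeR adjusted p = 0.137). Cd63, a tetraspanin of late endosomes, averaged 2518 ± 626 CPM in pIR and 1418 ± 269 CPM in pWT libraries in blastocysts (0.83 ± 0.19, edgeR adjusted p = 0.0187). Its groups overlapped there, and it did not pass without pIR 2, pIR 3, pWT 1 or pWT 2 (0.0687, 0.0655, 0.0559 and 0.0666). Over 13697 genes, 0 effects differed between stages past the threshold in edgeR, 1101 had an unadjusted p under 0.05, and DESeq2 called 51. In morulae the respiratory chain list had 0 called genes, where 0.136% of all genes passed. Its median there was 0.22, against -0.006 over all genes, and 55 of its 73 genes had a log2 difference above 0.

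**Figure D5:**
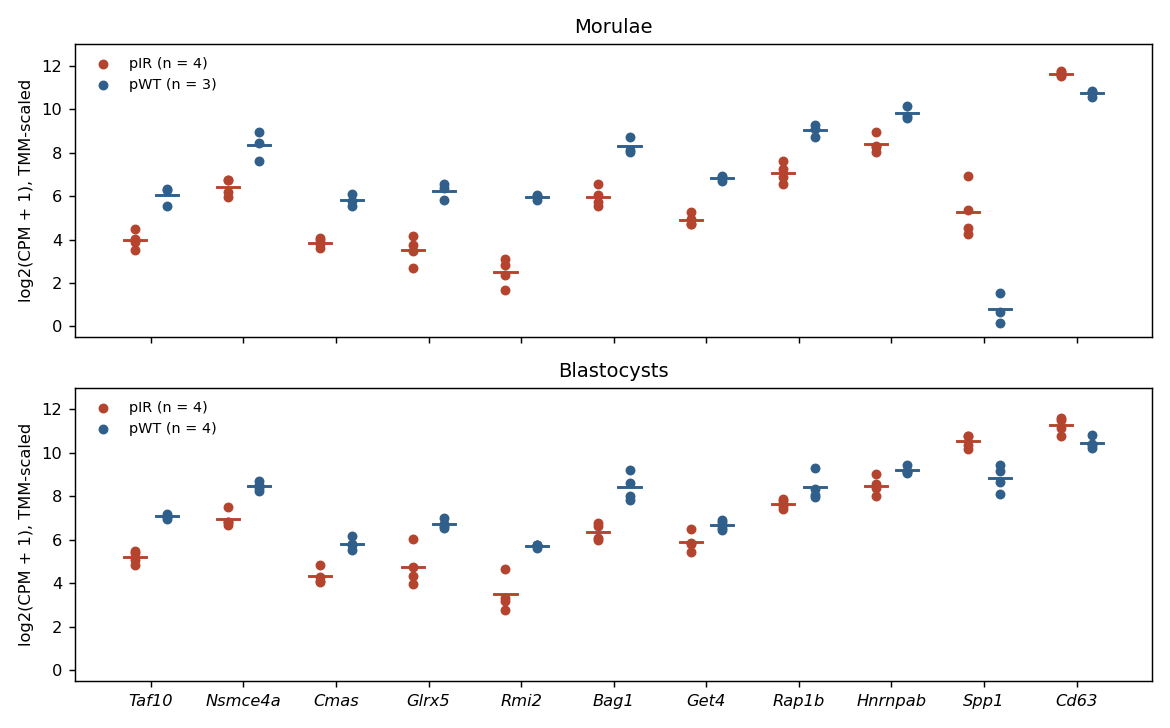
Levels as log2(CPM + 1) of the 11 genes called at both stages, in morulae (top, pIR n = 4, pWT n = 3) and blastocysts (bottom, n = 4 each), with pIR drawn left of pWT and lines at the means. Taf10, Nsmce4a, Cmas, Glrx5, Rmi2 and Bag1 are lower in every pIR library than in every pWT library at both stages, and Spp1 is higher.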

How the data were processed

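Whole-number counts of reads per gene were deposited by the authors in one table for morulae and blastocysts. Per the submitters' processing notes, the tools used were Trim Galore 0.6.6, HISAT2 2.1.0, featureCounts 1.6.4 and DESeq2, with the mouse build mm10. The kit used for each library, whether strand was used and how multi-mapping reads were counted are not given in the sources used here, so values of overlapping or nearly identical genes are uncertain.

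The 8 blastocyst columns were fitted together in edgeR 4.0.16 under R 4.3.3, with filterByExpr at a minimum count of 10, TMM scaling, glmQLFit and glmQLFTest, and a two-sided test at a Benjamini-Hochberg adjusted p of 0.05. Morulae were fitted alone, and in a model of stage by genotype for the difference between stages. CPM are TMM-scaled, and intervals are SE for log2 differences and SD for means. DESeq2 1.42.0 was an alternative. The procedure was tested on simulated data. Positions and transcript lengths came from the GENCODE M21 annotation for 24773 of 25277 genes (98%), 355 of them through an older symbol. Replicates of one label differed by more than sampling noise, with a chi-square per degree of freedom of at least 26.1. Same-numbered pIR and pWT libraries had correlations of deviations of -0.023, 0.022, 0.118 and -0.043, so numbers were not taken as pairs.

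The gene lists and the members described were chosen with earlier results of these data known. Genes are named if they were among the 10 called genes with the largest rise or fall (at least 5 CPM in the higher group, no overlap, no predicted genes), the 5 called members of a list with the smallest p, the 3 members of a list with the highest mean, or 12 lineage genes. Others are said to be chosen after their values were seen. Settings with chromosomes 4 and 10 left out, chromosome shifts removed or pWT 2 and 3 left out were added after seeing the data, and so were the morula fits with chromosome shifts removed or 1 library left out.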

Additional observations from a re-analysis of the deposited data

Results flagged for a closer look

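Over the genes shown by library and the shifts of chromosomes 4, 10 and X, 148 groups of 4 libraries were checked for a library far from its others, and 15 (10.1%) had one, where chance gives about 1 in 20. In pIR blastocysts these were Plac1 in pIR 1 (311 CPM), Sri in pIR 2 (486 CPM), Cs in pIR 3 (203 CPM), Rmi2 in pIR 3 (24.3 CPM), Nsmce4a in pIR 4 (182 CPM) and Dnmt3b in pIR 1 (295 CPM). In pWT blastocysts these were Hes1 (84.2 CPM) and Slc6a14 (3.5 CPM) in pWT 1, Mdh1 (262 CPM) and Ndufa8 (357 CPM) in pWT 3, and Pgk1 (71.5 CPM), Plac1 (24.1 CPM), Rmi2 (48.1 CPM) and Xlr3a (61.1 CPM) in pWT 4. The shift of chromosome 10 was 0.394 in pWT 3, apart from the other pWT libraries. For Mdh1, Ndufa8, Plac1, Pgk1, Rmi2 and Xlr3a the outlying pWT library lay towards the pIR levels.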

How the results depend on the processing

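The 1282 genes called in pIR against pWT blastocysts became 2123 with DESeq2 (1268 higher, 855 lower in pIR), 584 with the morulae in the same fit (475 higher, 109 lower) and 402 without pWT 2 and pWT 3 (298 higher, 104 lower). With the transcript length trend removed 291 were lower, and 278 with the length trend removed and the replicate block. Leaving out 1 library gave 229 to 1520 calls, 142 to 930 of them higher and 86 to 590 lower. For effects that differ between stages, edgeR called 0 and DESeq2 called 51. With low counts kept edgeR called 3, with median-of-ratios scaling 1, and with 1 library left out 0 to 9. The 16 genes called in pIR against pWT morulae became 6 with chromosome shifts removed and 0 to 8 with 1 morula left out. The causes of these changes were not tested.

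With the replicate number as a block, 1375 were the genes called in pIR against pWT blastocysts, 888 higher and 487 lower in pIR, and 0 between stages. The numbers name libraries and do not pair them. Over the named genes' log2 differences recomputed under every setting, 4484 values kept their side of the threshold, 794 lost it, 121 gained it and 0 called values reversed direction.

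Between 9657865 and 14896979 counts per library and 4 libraries a group limit these results. Low genes such as Gata4 and Sox17 had wide errors.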
